A study of Mus musculus with 2 samples.

Results

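The PGC1 coactivators, with the transcription factors and the corepressor that work with them, were examined in mouse embryonic fibroblasts given celastrol. The group was named as 10 genes, which are Ppargc1a, Ppargc1b, Pprc1, Esrra, Nrf1, Tfam, Hsf1, Hsf2, Nrip1 and Ucp2. Of these, 8 had a probe set annotated to that gene and no other, as had 19946 genes in the whole table. Hsf1 and Ucp2, which encode the main heat shock factor and a mitochondrial uncoupling protein homologue, had none in the annotation used and were not analysed here. Ppargc1a had 2 probe sets and the other 7 measured genes 1 each. The names Nrf1 and Tfam were matched by gene identifier, so Nrf1 is nuclear respiratory factor 1 and not a member of the Nfe2l family that shares the abbreviation.

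The cells were embryonic mouse fibroblasts, a connective tissue cell type, in which an adenovirus had delivered LacZ, a bacterial enzyme gene, to every culture. One group received 250 nM celastrol, a plant triterpenoid of the quinone methide class, and the other its solvent DMSO, both for 7 h in DMEM with 1% FBS. Each group is represented by 1 Affymetrix array, so there is no replicate, no test and no p-value, and an effect of the treatment cannot be told apart from one of the culture or the array. The labels give no strain, embryo age or passage number. Neither label describes a culture without adenovirus, so all values come from infected cells.

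The PGC1 proteins are transcriptional coactivators. They do not bind DNA themselves but dock on nuclear receptors and other factors and recruit enzymes that open chromatin. Through the orphan receptor ERR alpha (Esrra) and nuclear respiratory factor 1 (Nrf1) they raise transcription of nuclear genes for mitochondrial proteins, including Tfam, whose protein packages mitochondrial DNA and helps start its transcription. Ppargc1a is the member of the family best known for induction by cold, exercise and fasting in brown fat, muscle and liver.

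All values below are RMA values on the log2 scale, where a difference of 1 is a 2-fold difference. Genes with a value above 5.72 in either array were taken as detected. That limit is the 95th percentile of the values of 1212 olfactory or vomeronasal receptor probe sets, genes of sensory neurons. This left 13907 genes, whose median difference was -0.01. The medians of all probe sets were 6.35 with celastrol and 6.33 with DMSO. As a description of technical scatter, the central 95% of receptor probe sets differed by -0.42 to 0.41, with an SD of 0.21. Receptor probe sets are dim and their scatter leaves out variation between cultures. Of 10 fibroblast markers 9 were detected, with Vim, Fn1 and Dcn among them, and Lum was not. The arrays measured RNA of whole cultures, so fewer cells of a type and less RNA per cell cannot be told apart.

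All 8 measured genes were detected in both arrays. Ppargc1a and Hsf2 had the largest differences, about 2.7-fold and just under 2-fold higher with celastrol. Nrip1 and Tfam were higher by smaller amounts, Nrf1, Ppargc1b and Esrra lay close to 0, and Pprc1 was the 1 gene with a lower value. Of the 8, 1 was higher by 2-fold or more, against 1.88% of all detected genes, and none was 2-fold lower, against 0.662%. By the looser threshold of 1.5-fold, 3 of the 8 were higher, against 6.19% of detected genes, and 0 were 1.5-fold lower, against 4.68%. The median of the 8 differences was 0.32. The genes were chosen with results of these arrays known, so the shares describe them and are not evidence that the group stands apart.

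**Figure D1:**
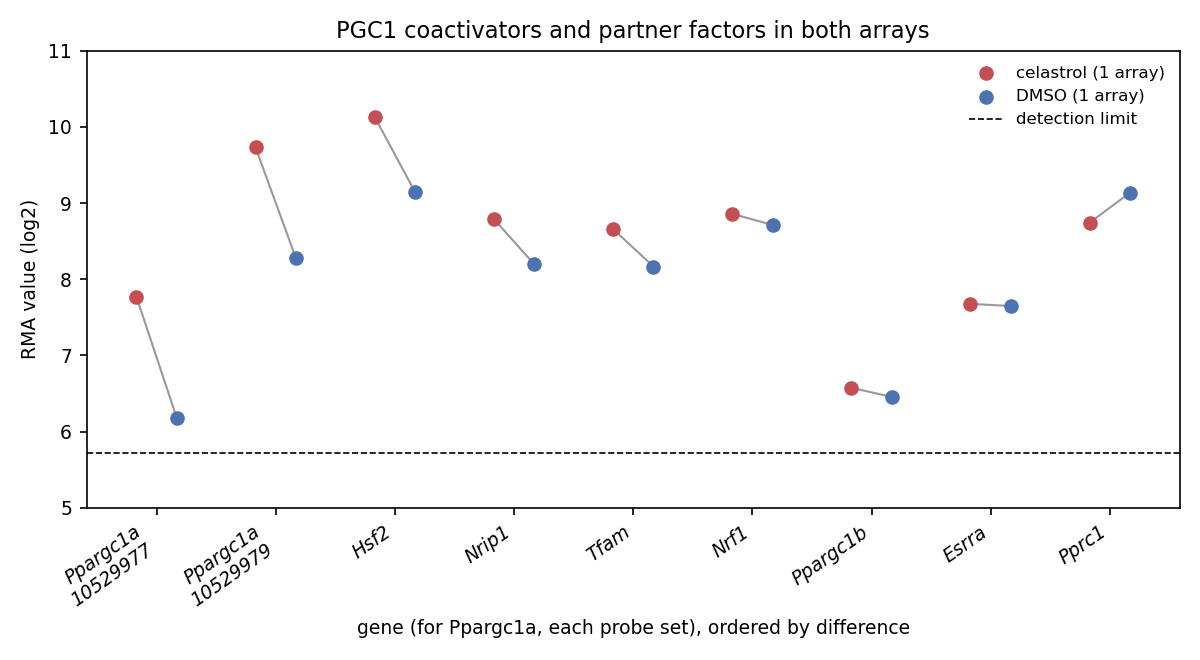
RMA values (log2) of the 9 probe sets of the 8 measured genes, ordered by difference. Red points are the celastrol array and blue points the DMSO array, 1 array each, and the dashed line is the detection limit of 5.72. Both Ppargc1a probe sets show the steepest lines, and Pprc1 alone has its celastrol point below its DMSO point.

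Ppargc1a encodes PGC1 alpha. Its brighter probe set, 10529979, read 9.73 with celastrol, against 8.27 with DMSO. The difference was 1.46, or 2.75-fold, and 83 detected genes (0.597%) had a larger one. The second probe set, 10529977, read 7.77 with celastrol, against 6.18 with DMSO, a difference of 1.60, or 3.02-fold. Both probe sets were therefore above the detection limit in both arrays and higher with celastrol. Both carry the same 3 sequence records in the annotation, and the brighter one carries 8 in all. Their differences were 0.14 apart. Over all 762 genes that had more than 1 detected probe set, the median gap was 0.10, and 57.3% had a smaller gap than Ppargc1a.

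The other coactivators of the family had smaller differences. Ppargc1b, which encodes PGC1 beta, a coactivator with many of the same mitochondrial targets, read 6.58 with celastrol and 6.46 with DMSO. Its difference of 0.12 lay within the receptor scatter, and its values were within 1 log2 unit of the detection limit, where RMA tends to compress differences. Pprc1, the PGC1-related coactivator, which is known to respond to serum in proliferating cells, read 8.74 with celastrol and 9.14 with DMSO. The difference of -0.39, or 1.31-fold lower, was just inside the receptor scatter, and 11.6% of detected genes had a lower one. The 3 coactivators thus had a large positive, a small positive and a moderate negative difference. Differences between them were not tested.

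Nrip1 encodes RIP140, a corepressor that binds nuclear receptors through leucine-rich boxes and restrains many genes that PGC1 alpha activates. It read 8.79 with celastrol and 8.20 with DMSO, a difference of 0.60, or 1.51-fold. The corepressor was therefore higher in the same culture as Ppargc1a, and 5.99% of detected genes had a larger difference.

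Among the transcription factors on which the coactivators act, Esrra read 7.68 with celastrol and 7.65 with DMSO, a difference of 0.03. Nrf1 read 8.86 with celastrol and 8.71 with DMSO, a difference of 0.15. Both lay within the receptor scatter, and 44.0% and 29.5% of detected genes had larger differences. Tfam, the mitochondrial transcription factor, read 8.66 with celastrol and 8.17 with DMSO. Its difference of 0.49, or 1.41-fold, was outside the receptor scatter, as was that of 21.7% of all detected genes.

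Hsf2 encodes heat shock factor 2, a partner of HSF1 that can form mixed trimers with it on heat shock elements. It read 10.13 with celastrol and 9.14 with DMSO, a difference of 0.99, or 1.99-fold, and 1.96% of detected genes had a larger one. With the median difference of detected genes, or a lowess trend, subtracted, Hsf2 passed 2-fold, and the count of members at least 2-fold higher became 2.

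In order of their differences the genes ran Ppargc1a, Hsf2, Nrip1, Tfam, Nrf1, Ppargc1b, Esrra and Pprc1. The steps between Nrip1 and Tfam (0.10), Nrf1 and Ppargc1b (0.03), and Ppargc1b and Esrra (0.09) were smaller than the receptor SD of 0.21. The steps from Ppargc1a to Hsf2 (0.47), Hsf2 to Nrip1 (0.39), Tfam to Nrf1 (0.35) and Esrra to Pprc1 (0.42) were larger. Of the 8, 4 lay outside the receptor scatter and 4 inside it, where 21.7% of all detected genes lay outside.

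**Figure D2:**
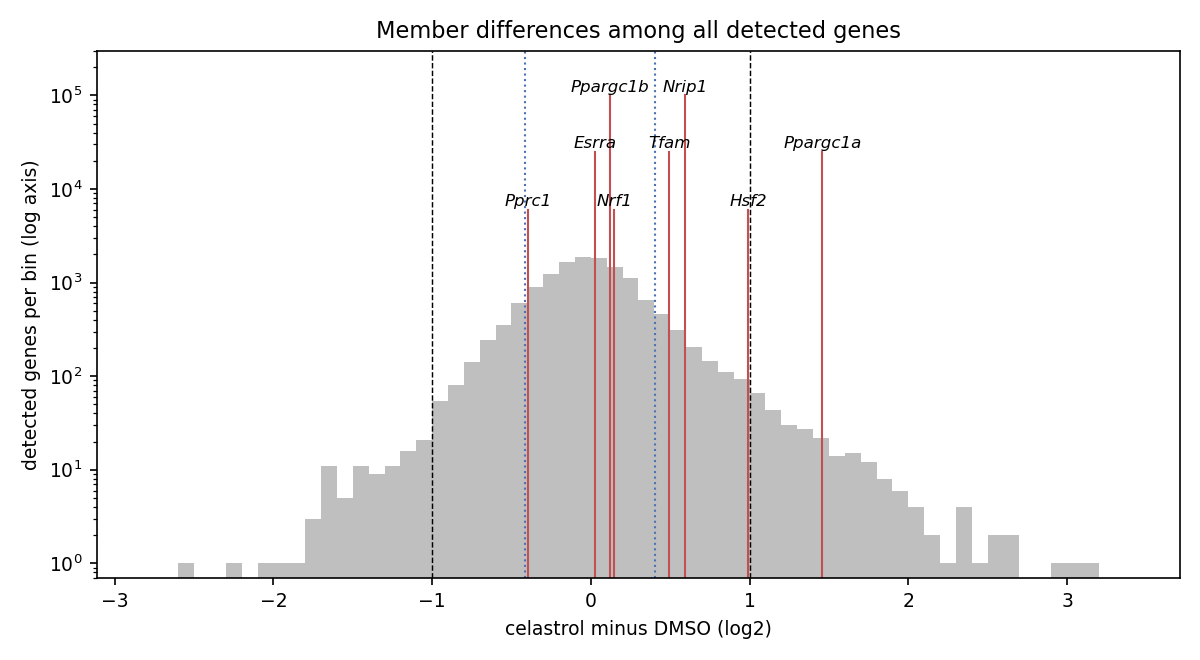
Histogram of the celastrol minus DMSO difference (log2) of the 13907 detected genes, in counts per bin on a log axis, with the 8 measured genes as red lines whose heights carry no value. Dashed lines mark 2-fold and dotted lines the central 95% of receptor probe sets. Ppargc1a at 1.46 lies in the right tail, Hsf2 at the 2-fold line, and Esrra, Ppargc1b and Nrf1 in the bulk.

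The sequences before the transcription starts of Ppargc1a and Hsf2, the members with the largest differences, and of Tfam and Pprc1 are shown to set the promoter of the highest gene beside those of a higher target and of the gene that was lower. They are the 250 bases before the start, 5′ to 3′ on the gene's strand, from RefSeq on GRCm38.p6. Capitals mark every match to the motifs named after them.
Ppargc1a, chr5:51567726-51567975, minus strand: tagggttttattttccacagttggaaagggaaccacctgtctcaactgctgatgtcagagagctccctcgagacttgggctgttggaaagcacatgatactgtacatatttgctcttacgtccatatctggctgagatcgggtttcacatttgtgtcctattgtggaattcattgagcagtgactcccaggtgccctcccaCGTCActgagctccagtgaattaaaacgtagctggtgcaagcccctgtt
Hsf2, chr10:57486135-57486384, plus strand: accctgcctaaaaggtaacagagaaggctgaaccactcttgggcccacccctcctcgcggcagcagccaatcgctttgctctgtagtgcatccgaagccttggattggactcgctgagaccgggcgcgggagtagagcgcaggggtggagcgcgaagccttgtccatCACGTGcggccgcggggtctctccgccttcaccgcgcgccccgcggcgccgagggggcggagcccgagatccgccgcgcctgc
Tfam, chr10:71238045-71238294, minus strand: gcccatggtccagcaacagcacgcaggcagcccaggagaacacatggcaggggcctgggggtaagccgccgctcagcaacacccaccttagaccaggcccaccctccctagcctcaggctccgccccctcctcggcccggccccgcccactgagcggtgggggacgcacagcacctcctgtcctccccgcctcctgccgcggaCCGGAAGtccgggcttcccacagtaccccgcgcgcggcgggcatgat
Pprc1, chr19:46056289-46056538, plus strand: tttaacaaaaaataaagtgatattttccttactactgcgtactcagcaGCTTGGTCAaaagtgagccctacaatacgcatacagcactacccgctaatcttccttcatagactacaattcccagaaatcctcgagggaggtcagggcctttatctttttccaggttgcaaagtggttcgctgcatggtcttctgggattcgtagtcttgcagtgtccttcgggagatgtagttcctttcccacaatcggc

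The windows of Ppargc1a, Hsf2 and Tfam lie wholly inside their annotated genes, since other transcripts of these genes start further upstream, and 13 bases of the Pprc1 window do. GC content was 48% for Ppargc1a and 45.2% for Pprc1, but 68.4% for Hsf2 and 72% for Tfam, with a median of 52.4% over all 32817 promoters. Windows were read for 8 of the 10 genes, 10 windows in all. Chromosome 18, which holds Ppargc1b, was left out of the member windows, so Ppargc1b was not searched, and Hsf1 had no entry. Motifs were searched on both strands, and each is given next with the share of all promoters that hold it, by its letters except for the NRF1 motif, which is named only.

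The heat shock element cores GAANNTTC (6.69% of all promoters) and TTCNNGAA (7.16%), the cyclic AMP response element TGACGTCA (1.55%), the ERR core AAGGTCA (4.08%) and the NRF1 motif (3.73%) matched in 0 of the 10 windows. This says only that these letters are not in these windows. The E-box CACGTG (6.02%) matched in Hsf2, from 83 to 78 bases before the start. The GABP motif CCGGAAG (6.90%), bound by the ETS factor also called nuclear respiratory factor 2, matched in Tfam, from 47 to 41 bases before the start. The antioxidant response element core TGACNNNGC (10.2%) matched in 3 windows, which belong to Pprc1, Nrip1 and Ucp2. The 5-letter core TGACG (17.7%), added after the full cyclic AMP element gave no match, was found in 2 of the 10 windows. These were Ppargc1a, from 49 to 45 bases before the start, and Ucp2, from 62 to 58. This core shares its first letters with the antioxidant core. A match describes the letters and is no evidence of binding.

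Factors on which PGC1 coactivators dock differed in both directions. Of 27 listed genes 22 were above the limit in both arrays, 15 with positive and 7 with negative differences. Of all genes detected, which needs only either array above the limit, 48.1% were positive and 51.9% negative. These shares, and those given above for 1.5-fold and 2-fold, are also the background for the counts of every list below. The median of the 22 was 0.10, 4 were at least 1.5-fold higher and none reached 2-fold. Rora, an orphan receptor that activates circadian genes, read 7.44 with celastrol and 6.60 with DMSO, 1.79-fold higher. Ppard, a fatty acid sensing receptor, read 10.58 with celastrol and 9.78 with DMSO, 1.74-fold higher. Thra, a thyroid hormone receptor, was 1.47-fold lower and Srebf1, a lipid synthesis regulator, 1.24-fold lower. Of the closest relatives of Esrra, Esrrg stood at 0.06, and Esrrb was below the limit with DMSO (5.54) and at it with celastrol (5.73). Gabpa and Gabpb1, which together form the GABP factor, stood at 0.51 and 0.61, while Gabpb2, also listed, stood at 0.02. Esrrg, Esrrb and the Gabp genes, and Sirt1, Fgf21 and some others below, were named after their values were seen.

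Other coregulators differed little. Of 23 listed genes 19 were detected, 7 with positive and 12 with negative differences, and the median was -0.14. Lcor, a ligand-dependent corepressor, stood at 0.45 and Lpin1, a phosphatase that also works with PGC1 alpha, at 0.35. Med1, the Mediator subunit that contacts nuclear receptors and PGC1 alpha, read 9.90 with celastrol and 10.49 with DMSO, a difference of -0.59. Tbl1xr1, a subunit of the NCoR corepressor complex, stood at -0.35, and at -0.64 in its second probe set.

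Enzymes and factors that act on Ppargc1a or its protein were detected for 22 of 25 listed genes, 15 with positive and 7 with negative differences, with a median of 0.14. Fnip1, a folliculin partner that restrains AMPK signalling, read 10.71 with celastrol and 9.76 with DMSO, 1.92-fold higher. Prkaa2, a catalytic subunit of the kinase AMPK, which phosphorylates PGC1 alpha, read 7.45 with celastrol and 6.70 with DMSO, 1.69-fold higher. Sirt1, the deacetylase that activates PGC1 alpha, was 1.51-fold higher. Kat2a, the acetyltransferase GCN5 that opposes it, read 9.40 with celastrol and 10.10 with DMSO, 1.63-fold lower. Akt2, an insulin pathway kinase, was 1.36-fold lower. These values are transcript levels and do not measure the activity of the enzymes.

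Genes downstream of the coactivators were grouped by function. For mitochondrial DNA maintenance and transcription all 14 measured of 15 listed genes were detected, 10 with positive and 4 with negative differences, with a median of 0.19. Lonp1, a matrix protease that degrades free TFAM protein, read 10.07 with celastrol and 9.34 with DMSO, 1.65-fold higher. Top1mt, the mitochondrial topoisomerase, was 1.37-fold higher. Polrmt, the mitochondrial RNA polymerase, read 8.27 with celastrol and 9.02 with DMSO, 1.68-fold lower, and Tfb1m, a methyltransferase of mitochondrial ribosomal RNA, was 1.25-fold lower. Tfam and Polrmt, which act at the same mitochondrial promoters, thus differed in opposite directions.

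Fatty acid oxidation genes were mostly lower by small amounts. Of 15 detected genes 12 had negative differences and 3 positive, with a median of -0.36 and a range from -0.69 to 0.20. Acadm, the medium-chain acyl-CoA dehydrogenase, read 9.35 with celastrol and 10.04 with DMSO, 1.62-fold lower, and was the 1 gene past 1.5-fold. Hadhb, a subunit of the trifunctional protein, was 1.44-fold lower, with -0.47 in its second probe set. Acadl and Acaa2, a long-chain dehydrogenase and a thiolase, stood at 0.20 and 0.13.

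Respiratory chain and Krebs cycle genes had small differences. Of 20 listed and detected genes 18 were negative and 2 positive, none by 1.5-fold, with a median of -0.18. Sdhb and Sdha, subunits of succinate dehydrogenase, were lowest at -0.41 and -0.36, while Alas1, the first enzyme of haem synthesis, and Cox5a stood at 0.01 and 0.00. Of 7 detected mitochondrial antioxidant genes 4 were negative and 3 positive, with a median of -0.07. Sod2, the mitochondrial superoxide dismutase, was 1.46-fold lower and Prdx3, a peroxiredoxin, 1.34-fold lower, while Cat, the catalase, and Sirt3, a mitochondrial deacetylase, stood at 0.16 and 0.07.

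**Figure D3:**
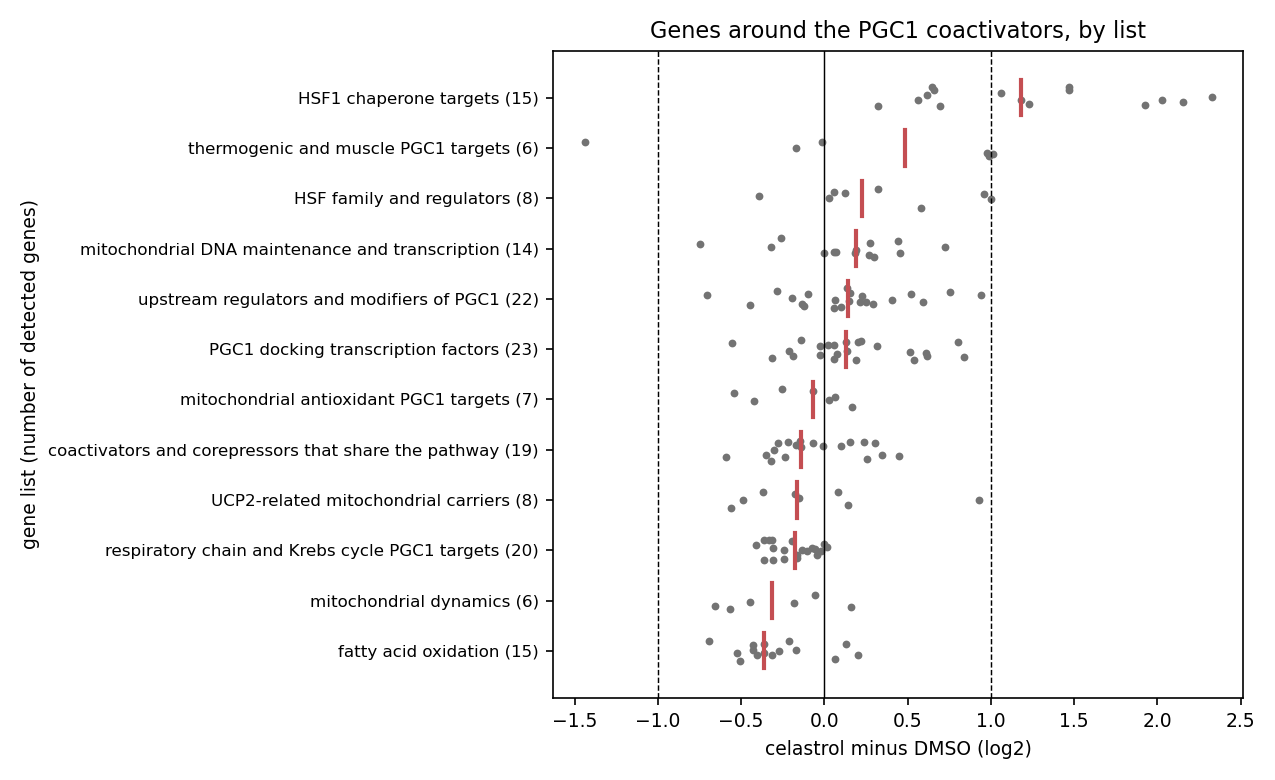
Celastrol minus DMSO difference (log2) of each detected gene in the 12 gene lists, 1 point per gene, with the number detected in brackets, including 5 genes above the limit with celastrol alone. Red bars are list medians, dashed lines mark 2-fold, and the vertical scatter within a list carries no value. The bar of the thermogenic list, over 6 genes, is not read, since 2 of them entered through the celastrol array alone. Heat shock chaperones lie at the top with a median of 1.18, and fatty acid oxidation genes at the bottom with a median of -0.36.

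Of 12 listed thermogenic, muscle and secreted targets of PGC1 coactivators 6 were detected. Ucp1, the uncoupling protein of brown fat, Ucp3, Cidea and Dio2 were below the limit in both arrays. Elovl3, a fatty acid elongase induced in brown fat, was below it with DMSO (5.25) and read 6.27 with celastrol, 1.455-fold over the limit. Fgf21, a secreted metabolic hormone, read 6.68 with celastrol and was listed just below the limit with DMSO (5.70). Vegfa, the angiogenic factor, read 11.24 with celastrol and 10.25 with DMSO, 1.99-fold higher. Angptl4, a lipase inhibitor, read 7.23 with celastrol and 8.67 with DMSO, 2.71-fold lower, and Slc2a4, the insulin-responsive glucose transporter, was 1.13-fold lower. Elovl3 and Fgf21 entered through the celastrol array alone, so no median or count over the 6 is read. Of the 4 above the limit in both arrays 1 was higher and 3 were lower.

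Among the other heat shock factors, Hsf4 read 8.19 with celastrol and 8.13 with DMSO, a difference of 0.06. Hsf5 was below the limit with DMSO (5.71) and read 5.83 with celastrol, and Hsf3 was below it in both arrays. Of the 10 listed genes of the family and its regulators 6 were above the limit in both arrays, 5 with positive differences and 1 with a negative one. Hsf5 and Hsf2bp were above it with celastrol alone, so their sign follows from the limit. Ahsa1, an activator of the HSP90 ATPase, read 11.49 with celastrol and 10.49 with DMSO, which is 2-fold. Hsp90aa1, an HSP90 isoform that holds HSF1 inactive, was 1.94-fold higher, and its 3 probe sets ranged from 0.91 to 0.96. Hsbp1, a small protein that binds HSF1 trimers, was 1.31-fold lower and Cdc37, a kinase cochaperone of HSP90, stood at 0.03.

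All 15 measured chaperone targets of heat shock factors were higher with celastrol, 13 of them past 1.5-fold and 9 past 2-fold, and their median was 1.18. Hspa1a, the inducible HSP70, read 9.02 with celastrol and 6.70 with DMSO, 5.01-fold higher, a value its near-identical copy Hspa1b leaves uncertain. Hspb1, a small heat shock protein, was 4.46-fold higher, Hsph1, an HSP110 chaperone, 4.08-fold and Dnajb1, an HSP40 cochaperone, 3.80-fold. Hspb8, Hspa4l, Chordc1, Bag3 and Dnaja1, all chaperones or cochaperones, ran from 2.77-fold to 2.08-fold higher. Hspa8, the constitutive HSC70, and Hspd1, the mitochondrial chaperonin, were lowest at 0.32 and 0.56.

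The 5 detected genes whose difference was nearest to that of Ppargc1a were Nqo1 (1.46), a quinone reductase, Cd68 (1.47), a lysosomal glycoprotein, Mfsd11 (1.45), of the major facilitator family, Vps37b (1.45), an ESCRT subunit, and Hspa4l (1.47), an HSP110-type chaperone. All lay within 0.012 of it. This likeness rests on the single difference that 2 arrays give. Because Cd68 is also a macrophage marker, the whole list of 10 such markers was read. Of these 5 were detected, 3 of them in both arrays, and their summed linear signal was 697 with celastrol and 408 with DMSO, mostly from Cd68 and Cd14. Adgre1, Ptprc, Itgam, Lyz2 and Aif1 were below the limit in both arrays. Of 9 adipocyte markers 6 were detected, with Adipoq and Lep below the limit in both arrays, and their differences ran from -0.23 to 0.41. Of 9 muscle markers 8 were detected, 7 of them in both arrays, with differences from -0.26 to 0.87. Tnnt2 had the highest difference and read 9.21 with celastrol and 8.34 with DMSO. The other detected ones were dimmer, with Acta1 the brightest at 7.08 with celastrol and 7.17 with DMSO. The part of other cell types in the Ppargc1a difference was not tested.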

How the data were processed

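The deposited table holds log2 values for 35556 probe sets in 2 arrays, made by the authors with RMA (background correction, quantile normalization and a summary per probe set), per the submitters' processing notes. Its version, its settings and which arrays it normalized together are not stated there. That the base is 2 was read from the range of the values. Background and saturation were not examined, and the number of arrays limits the precision.

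Of the probe sets, 21797 carried a single gene in GEO's platform annotation, 1613 several and 12146 none. RefSeq's table for GRCm38.p6 held the identifiers of 21698 and supplied current names. Probe sets naming several genes or none were left out. A gene took its probe set with the highest mean of both arrays. The difference is celastrol minus DMSO. Receptor probe sets are those whose symbol starts with Olfr, Vmn, V1r or V2r. No test was possible with 1 array per group.

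The members and the 16 gene lists (12 of pathways, 4 of markers) were chosen with earlier results of these data known. Named from each pathway list are genes past 2-fold and the 2 highest and 2 lowest, plus the 5 nearest to Ppargc1a, leaving out provisional symbols, receptors and small RNAs. Genes named outside this rule were chosen after their values were seen. The difference step was tested on simulated data, and the count steps were not checked in this way. Alternatives were averaging the probe sets of each gene, quantile normalization, removal of the median difference or of a lowess trend with fraction 0.3, other detection limits (none, the median of 6.34, or, added after seeing the data, the limit passed in both arrays), the second Ppargc1a probe set, and other fold thresholds. Python 3.11.15, numpy 2.4.6, pandas 2.3.3, statsmodels 0.14.6 and matplotlib 3.10.9 were used.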

Additional observations from a re-analysis of the deposited data

How the results depend on the processing

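Of 168 recalculations 160 moved the value by less than the receptor SD of 0.21 or the count by at most 1.5 times, and 1, given below, changed the sign of a value larger than that SD. Many of these could move little or not at all. Averaging cannot change the 7 members with 1 probe set, and subtracting the median shifts all differences by the same 0.01. Each other detection limit kept the member median at 0.32. The total is therefore not a measure of stability. The Ppargc1a difference ran from 1.47 to 1.60 over 5 alternatives, Hsf2 from 0.99 to 1.04, Nrip1 from 0.60 to 0.67, Tfam from 0.49 to 0.56 and Pprc1 from -0.39 to -0.33, and the member median from 0.32 to 0.39. The count of members at least 2-fold higher was 1, and became 2 with the lowess trend subtracted and 2 with the median difference subtracted, because Hsf2 lies at the threshold. By construction it became 3 at 1.5-fold and 0 at 3-fold. The count past 1.5-fold in either direction was 3 under all 7 alternatives. The macrophage list median moved to 1.09 with the limit at the median of all probe sets, which leaves fewer genes. The thermogenic list median, 0.48 over the 6 detected genes, is given only for this comparison and is not read as a result. It moved to 0.07 with no detection limit, which adds undetected genes. An alternative chosen after seeing the data kept only genes above the limit in both arrays. It turned the thermogenic median to -0.092 over 4 genes, by leaving out Elovl3 and Fgf21, and moved the macrophage median to 0.71 over 3. No paired analysis was possible because each group has 1 array. Signal over background was not examined, so what it limits for dim probe sets such as Ppargc1b is not known.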

Other observations

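Genes of mitochondrial shape were mostly lower by small amounts. Of 6 detected genes 5 had negative differences, with a median of -0.32. Fis1, an adaptor at the outer membrane, read 10.61 with celastrol and 11.27 with DMSO, 1.57-fold lower. Mfn2, a fusion GTPase and a known target of PGC1 coactivators, read 9.21 with celastrol and 9.78 with DMSO, 1.48-fold lower. Dnm1l, the fission GTPase, stood at 0.16 and Mff, its receptor, at -0.05.

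Mitochondrial carriers related to Ucp2 went both ways, 5 negative and 3 positive of 8 detected, with a median of -0.16. Slc25a30, a kidney mitochondrial carrier of the uncoupling protein family, read 9.81 with celastrol and 8.88 with DMSO, 1.90-fold higher. Slc25a14, another carrier of that family, stood at 0.14. Slc25a11, the oxoglutarate carrier, was 1.47-fold lower and Slc25a1, the citrate carrier, 1.40-fold lower.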
